A study of Saccharomyces cerevisiae with 9 samples.

Results

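Removal of Bdp1 from the nucleus was set against no removal in budding yeast, Saccharomyces cerevisiae, for all genes with polyadenylated transcripts. The depleted strain carried HHY168 fpr1delta::hphMX4 with BDP1-FRB::kanMX6 (3 libraries, Bdp1AA) and the strain it was set against carried HHY168 fpr1delta::hphMX4 alone (3 libraries, labelled WT and called WT below). Both received rapamycin for 2 h, so neither rapamycin nor the FPR1 deletion given in the labels separates them, and these 6 of the 9 libraries of the series were used. In anchor-away, rapamycin couples an FRB-tagged protein to an FKBP12-tagged anchor that leaves the nucleus. Direct RNA sequencing was run on the Oxford Nanopore platform, where each read begins at a poly(A) tail and so places a 3′ end. Each group is deposited as 1 column in which its libraries are pooled, as a scaled number of read ends (signal) per gene and position. After both tables were set to a common minimum of 0.834 signal units per position, 5338 genes had ends past their annotated end in Bdp1AA (14160864 reads) and 5620 in WT (22172295 reads). Of 6516 features listed in any table of the series, 4544 had at least 60 reads in both groups and were compared, 4338 of them protein-coding genes of the reference annotation. With 1 column per group there is no spread between libraries, so no test was possible, and every interval below is an exact 95% interval that covers counting error only.

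Bdp1 belongs to TFIIIB, a complex that recruits RNA polymerase III (Pol III) upstream of tRNA genes and stays bound there between rounds of transcription. Protein-coding genes are transcribed by Pol II, and their mRNA ends are set by cleavage and polyadenylation downstream of the stop codon, often at several positions. Yeast tRNA genes are scattered between Pol II genes, so a bound tRNA gene can lie a short way past an mRNA's usual end. The series title names TFIIIB as a roadblock in the choice of cleavage site, and the comparison bears on where transcripts end when TFIIIB cannot form. Unbalanced tRNA or amino acid supply is also known in yeast to act on translation of the transcription factor Gcn4, which activates genes of amino acid biosynthesis.

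The tagged and deleted genes were read first. BDP1 had a downstream signal of 12.8 (298 reads) in WT and was not listed in Bdp1AA. In WT 1 of its 2 positions is also listed under another gene. The gene carries FRB::kanMX6 in Bdp1AA, and what its absence says of the BDP1 mRNA level was not tested. FPR1, which the labels give as deleted in both strains, was not listed in Bdp1AA and had a signal of 1.29 (30 reads at 1 position) in WT. As deposited, 158 WT reads stood under it. The origin of these reads was not tested, and every direction below is relative to a group with reads under a gene labelled as deleted. RPL13A, the gene of the usual anchor protein, was not listed in either group. RNA15, which is not tagged in these strains, had 7.29 (143 reads) in Bdp1AA and 16.3 (380 reads) in WT, a ratio within 2-fold of the median gene.

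In 7 genes with a tRNA gene on the opposite strand, transcripts of Bdp1AA ended past that tRNA gene and those of WT did not. Sequences of 5 of them are shown because they place the ends on either side of the tRNA gene. For each, the first line gives 30 bases around the most used end beyond the tRNA gene in Bdp1AA, the second the most used end before it in WT, and the third the start of the tRNA gene on its own strand. Letters are 5′ to 3′ in build R64, with a capital at the listed end position, or capitals for the first 10 bases of the tRNA gene after the 20 bases before it, next to which TFIIIB binds.
ALG13, Bdp1AA end, chrVII:412536-412565, plus strand: acgtgaagatcgagaAacagtcagcagatt
ALG13, WT end, chrVII:412169-412198, plus strand: attttaaaagacgaaAagaacggaaagtag
ALG13, start of tV(AAC)G1, chrVII:412358-412387, minus strand: aaacgaaacatcaaaaaactGGTTTCGTGG
YOR059C, Bdp1AA end, chrXV:438543-438572, minus strand: aattaactaccgaaaAggatacattgctaa
YOR059C, WT end, chrXV:438833-438862, minus strand: tctcatgtgattaaaAtgtattactaccac
YOR059C, start of tK(UUU)O, chrXV:438623-438652, plus strand: aggacgctccgaagaactcaTCCTTGTTAG
CUS2, Bdp1AA end, chrXIV:96593-96622, plus strand: aatactgaagctgtgTttgagaaatgggtg
CUS2, WT end, chrXIV:96137-96166, plus strand: gaacacaatgtaataAacagaatggattag
CUS2, start of tG(UCC)N, chrXIV:96303-96332, minus strand: agttacaccatccaacacatGGGCGGTTAG
YOR289W, Bdp1AA end, chrXV:854525-854554, plus strand: ataaactgttttgacAactggttacttccc
YOR289W, WT end, chrXV:854138-854167, plus strand: agaaacattaaaaaaAatatgcttttatac
YOR289W, start of tA(UGC)O, chrXV:854250-854279, minus strand: aacagtttcaacagtcatcaGGGCACATGG
PCL5, Bdp1AA end, chrVIII:238152-238181, plus strand: cttttattatgacagAattttaagaattat
PCL5, WT end, chrVIII:237714-237743, plus strand: tttcattcatcaataAattaactttttttt
PCL5, start of tF(GAA)H1, chrVIII:237930-237959, minus strand: agaatttcaacaaatagtaaGCGGATTTAG

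Among the most used ends of the compared coding genes of Bdp1AA, the listed base was A in 93.6% on the minus strand and 63.4% on the plus strand, where the next base was A in 94.1%, so plus-strand positions may lie 1 nt early. The hexamer TATATA, known as an efficiency element of yeast mRNA 3′ ends, was searched on the transcript strand in the 60 nt before each end. It stood before 3 of the 7 ends beyond the tRNA gene in Bdp1AA and before 3 of the 7 most used ends of the same genes in WT. Among the most used ends of all 4338 compared coding genes it stood before 38.8% in Bdp1AA and 38.5% in WT.

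Across all genes, end positions barely moved. The mean end shifted by a median of −0.17 nt, Bdp1AA minus WT (quartiles −1.29 and 0.99 nt), and 84.7% of genes lay within 5 nt of 0. The mean end of the median coding gene lay 118 nt past the gene in both groups. A distal shift of at least 20 nt was found in 106 of 4544 genes (2.33%) and a proximal one in 41 (0.902%). Only 52 of the distal features were coding genes with a tag in the reference, and the others included 29 Ty features, 10 rRNA features and 10 snoRNAs, many of which are copies that can share reads.

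Coding genes followed by a tRNA gene stood apart from that background. Of 88 with a tRNA gene within 500 bp past their end, 15 were distal (17.0%, interval 9.87 to 26.6%), against 36 of 4216 with none within 1000 bp (0.854%). All 15 faced a tRNA gene on the opposite strand, so that both genes are transcribed towards each other and the mRNA meets the TFIIIB-bound end last. They made up 20.3% of the 74 genes so arranged (interval 11.8 to 31.2%). Where the tRNA gene lay on the same strand, 0 of 14 genes were distal (interval 0 to 23.2%), and that interval takes in the share on the opposite strand.

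The displacement reached past the genes that crossed the 20 nt limit. At 5 nt or more, 35 of the 74 convergent genes lay further downstream in Bdp1AA (47.3%), against 283 of the 4216 genes without a tRNA gene (6.71%). A shift of 5 nt or more towards the gene was seen in 1 of the 74 (1.35%) and in 284 of the 4216 (6.74%). The median shift of the 74 was 3.66 nt, against −0.22 nt without a tRNA gene. The median of their mean ends was 117 nt in Bdp1AA and 91.1 nt in WT, whereas genes without a tRNA gene had 117 nt in Bdp1AA and 118 nt in WT. On the same strand, 3 of 14 genes moved by 5 nt or more.

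The share was highest close to the tRNA gene. Among convergent genes, 10 of 33 were distal where the tRNA gene began over 100 and up to 200 bp past the gene (30.3%), 2 of 24 at up to 300 bp (8.33%), 2 of 16 at up to 500 bp (12.5%) and 1 of 10 at up to 1000 bp. The single gene with a tRNA gene within 100 bp, YOR289W, was distal too. The intervals of these small groups overlap, from 15.6 to 48.7% for the group at up to 200 bp and from 1.03 to 27.0% for the next.

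**Figure D1:**
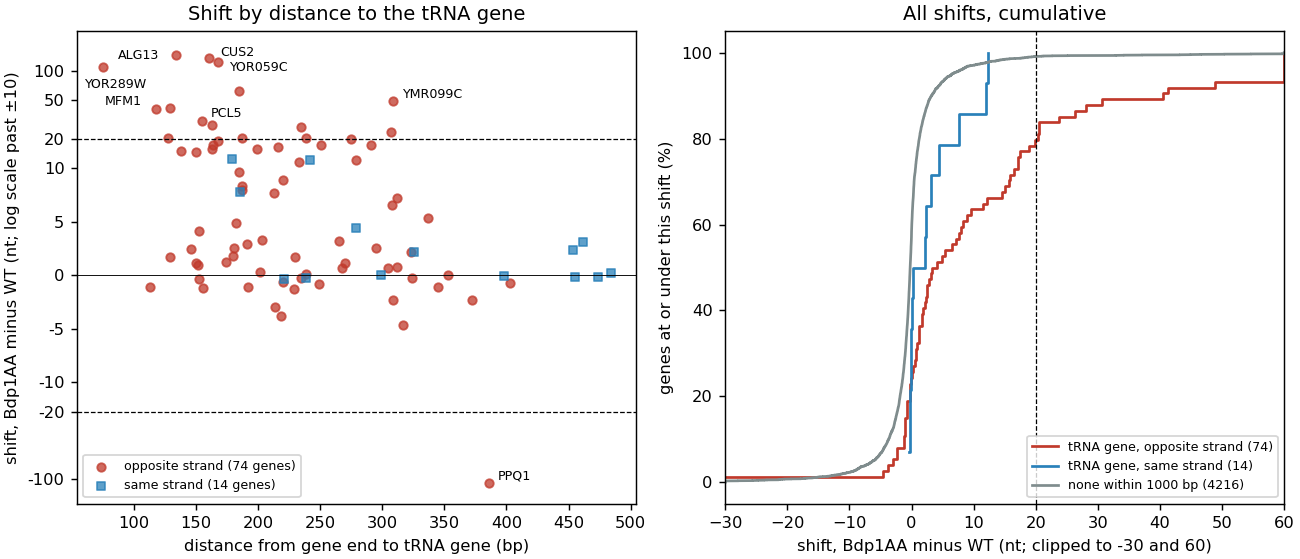
Shift of the mean 3′ end, Bdp1AA minus WT, for the 88 coding genes that precede a tRNA gene by up to 500 bp. The left panel sets the shift against the distance in bp to the tRNA gene (1 point per gene, dashed lines at 20 nt either way). The right panel gives the share of genes at or under each shift, and 20.3% of the 74 convergent genes reach 20 nt against 0.854% of the 4216 genes without a tRNA gene.

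Ends past the tRNA gene itself were rare next to other genes. In the 74 convergent genes, a mean of 2.06% of ends in Bdp1AA and 0.0617% in WT lay past the tRNA gene's far edge. In the 4216 genes without a tRNA gene, the mean share past the same distances was 7.62% in Bdp1AA and 7.58% in WT. Past the near edge the shares of the convergent genes were 2.66% in Bdp1AA and 0.588% in WT, and those of the genes without a tRNA gene 18.3% in Bdp1AA and 18.4% in WT. The share thus differed between the groups at tRNA genes and hardly elsewhere, and in Bdp1AA it still lay under that of genes with no tRNA gene. Distances between neighbouring genes differ between these sets, and the part of that in the result was not tested.

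The last listed end gives the reach of each gene. Its median lay 61 nt before the near edge of the convergent tRNA gene in Bdp1AA and 72 nt before it in WT. It lay further downstream in Bdp1AA in 32 of the 74 genes, by a median of 18.5 nt, at the same position in 36 and further in WT in 6. On the same strand it lay further in Bdp1AA in 4 of 14 genes and further in WT in 1. No such count was taken for genes without a tRNA gene, so these counts cannot tell tRNA genes from other genes. The common minimum corresponds to 17 reads in Bdp1AA and 20 in WT, and the part of this difference in the result was not tested.

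**Figure D2:**
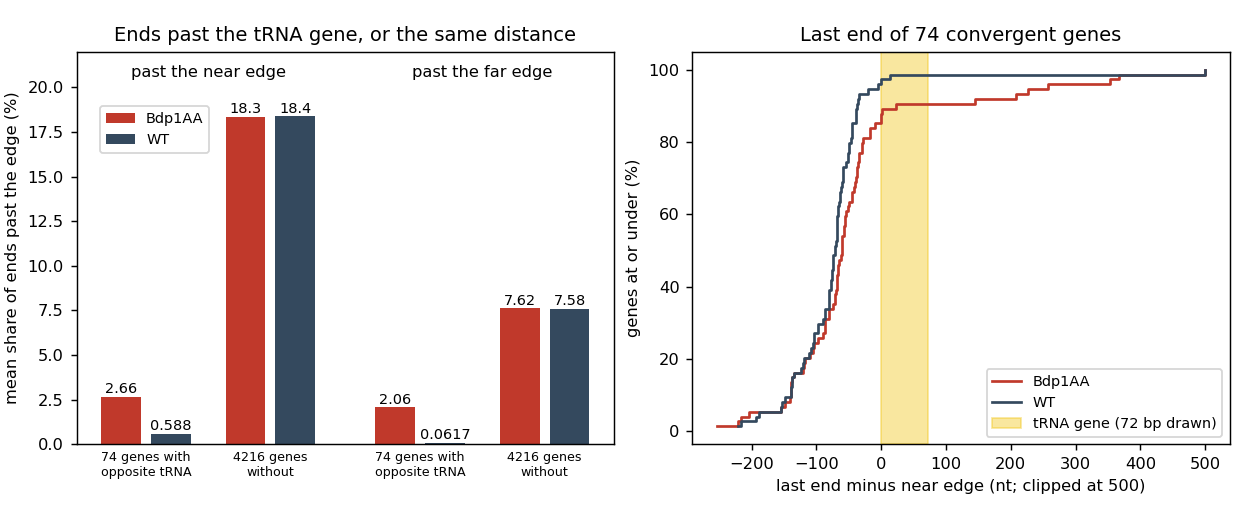
The left panel gives the mean share of ends (%) past the near and far edge of a convergent tRNA gene in 74 genes, with the share past the same distances in 4216 genes without one, for Bdp1AA and WT. The right panel gives the share of the 74 genes whose last listed end lies at or before each distance from the near edge, and 7 genes in Bdp1AA and 1 in WT have ends past the far edge.

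The 7 genes with ends beyond the far edge in Bdp1AA were led by 4 in which those ends were a large share. ALG13 acts with Alg14 in building the N-glycan precursor (chromosome VII, 411552 to 412160, plus strand), and tV(AAC)G1 lies 134 to 207 nt past it. Beyond it lay 68 of 167 Bdp1AA reads, at 2 positions 174 and 184 nt past its far edge, and 0 of 532 WT reads. The counting interval of that 0 reaches 0.691%, but it leaves out WT positions under 20 reads, which were not counted. The WT share is therefore not bounded by it. The mean end of ALG13 lay at 176 nt in Bdp1AA and 29.8 nt in WT, a shift of 147 nt. YOR059C has tK(UUU)O in its path, and 100 of its 246 Bdp1AA reads ended 86 to 113 nt past that gene, against 0 of 331 WT reads. Before the tRNA gene, the same position 59 nt past YOR059C was the most used in both groups.

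CUS2, which encodes a U2 snRNA-associated splicing factor, ended 64 of 236 Bdp1AA reads at 1 position 296 nt past tG(UCC)N, against 0 of 548 in WT. Its other ends differed as well, the most used position before the tRNA gene being 95 nt past CUS2 in Bdp1AA and 72 nt in WT. YOR289W stood apart from the others because ends lay inside tA(UGC)O in both groups, 163 of 494 reads in Bdp1AA and 104 of 267 in WT. Ends past it, at 260 to 281 nt, were listed in Bdp1AA alone, for 150 reads.

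PCL5, CHO1 and DFG5 had smaller shares, and the shift of CHO1, 16.6 nt, did not reach the limit. PCL5, the cyclin that marks Gcn4 for degradation, ended 624 of 9088 Bdp1AA reads beyond tF(GAA)H1 (6.87%), at 10 positions 217 to 1040 nt past it. WT had 872 PCL5 reads in all at 10 positions, so minor ends of PCL5 could lie under the minimum there. CHO1, the phosphatidylserine synthase gene, had 53 of 1330 reads beyond tH(GUG)E1 in Bdp1AA and another 60 inside it, against 0 of 2053 in WT. DFG5, a cell wall gene, had 23 of 862 beyond tR(UCU)M1 in Bdp1AA, against 0 of 1429 in WT. With the minimum doubled, no end beyond remained for CHO1 and DFG5 and the other 5 genes kept theirs. With the lower minimum of the WT table, an alternative chosen after seeing the data, 11 genes in Bdp1AA and 1 in WT had ends beyond.

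**Figure D3:**
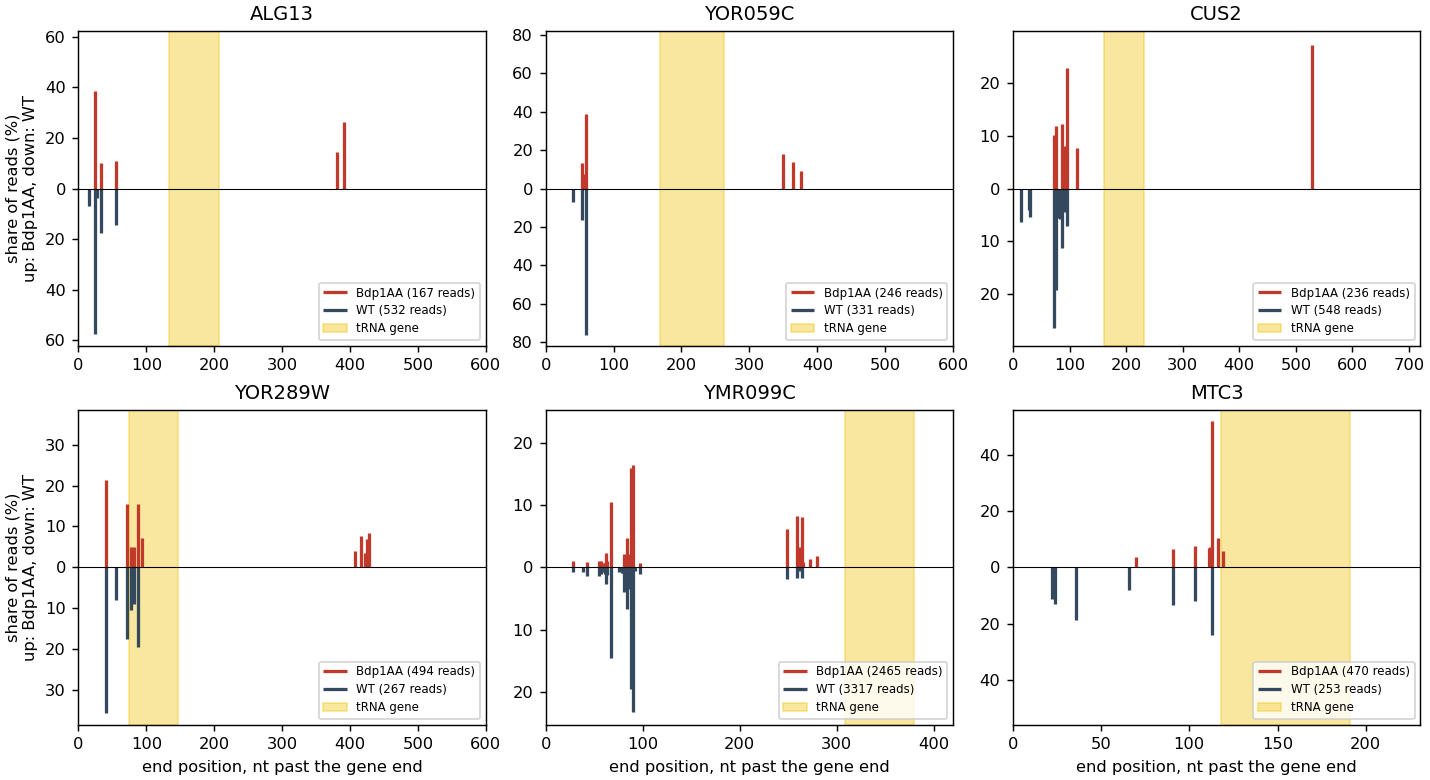
Share of reads (%) ending at each listed position, in nt past the gene end, for 6 genes with a convergent tRNA gene (yellow), Bdp1AA upward and WT downward. In ALG13, YOR059C, CUS2 and YOR289W, Bdp1AA ends stand past the tRNA gene where WT has none, and in YMR099C and MTC3 they move towards it.

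Other convergent genes moved towards the tRNA gene without passing it. YMR099C, which is 309 bp from tD(GUC)M, had 2 clusters of ends, at 28 to 97 nt and 249 to 280 nt. The distal cluster held 33.0% of 2465 reads in Bdp1AA and 5.91% of 3317 in WT, with a shift of the mean end of 48.8 nt. MFM1, a mitochondrial magnesium transporter gene, had all 119 Bdp1AA reads at 109 to 128 nt, against 45 of 128 WT reads there and 83 at 48 to 60 nt. MTC3 had no listed ends at 22 to 36 nt in Bdp1AA, where 42.7% of WT reads lay, and its most used end in both groups lay 113 nt past the gene, 5 nt before tV(AAC)G3 begins. YKT6, a SNARE gene, shifted by 26.3 nt within 1 broad cluster, with its most used end at 175 nt in Bdp1AA and 149 nt in WT. WSC2 (23.7 nt), JIP5 (20.5 nt), YPR010C-A (20.5 nt) and the histone chaperone gene ASF1 (20.3 nt) lay just past the limit. PPQ1, a phosphatase gene, was the only proximal one (−111 nt), through 34 WT reads at 1 position 3114 nt past the gene, and without them, at the doubled minimum, its shift was 3.30 nt.

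GCN4 itself has a convergent tRNA gene 181 bp past its end, tRNA-Arg at 138666 to 138737 on chromosome V. Its most used end was 97 nt past the gene in both groups, with 55.4% of 15067 reads in Bdp1AA and 51.9% of 16682 in WT. The shift was 2.57 nt, and its last listed end lay at 152 nt in Bdp1AA and 112 nt in WT.

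Poly(A) site usage was taken over clusters of ends at most 25 nt apart, and 71 of 4544 genes (1.56%) differed by 20 percentage points or more. Among the 88 genes with a tRNA gene within 500 bp, 8 did so (9.09%), against 44 of the 4216 without one (1.04%). The most used cluster differed in 63 genes and was the more distal one in Bdp1AA in 49 of them. AVL9, a secretory pathway gene, has a tRNA gene further off than 500 bp, and its cluster at 438 to 479 nt held 68.8% of 160 reads in Bdp1AA and 16.4% of 165 in WT.

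Genes without a tRNA gene also changed, in smaller proportion and with less stability. HDA1, a histone deacetylase gene, had a distal shift of 290.7 nt that rests on 64 Bdp1AA reads at 2 positions. RHB1, a small GTPase gene, had 94 of 196 Bdp1AA reads in a cluster at 622 to 646 nt that was not listed in WT. Usage also differed where few Bdp1AA reads were listed. In PRP40, a splicing factor gene that is not a proximal call, all 71 Bdp1AA reads ended at 91 to 95 nt while 46.0% of 239 WT reads lay at 122 to 141 nt. MYO1, the myosin heavy chain gene, had 64 Bdp1AA reads at 1 position, 106 nt past the gene, against 285 of 508 in WT, whose other 223 reads lay at 70 to 79 nt. A position had to hold 17 reads in Bdp1AA and 20 in WT to pass the common minimum. YLR112W (−260 nt), PRI1, a DNA primase gene (−145 nt), SNP1 (−105 nt) and SLD5 (−82.0 nt) had large proximal shifts, and YLR112W, PRI1 and SLD5 each turned sign under another minimum or assignment of positions. Distal shifts of repeated features reached 822 nt in the rRNA feature RDN58-2 and 743 nt in the Ty feature YDR098C-A, and copies of these can share reads. NSL1, a kinetochore gene, had 190 nt, and −44.8 nt with positions as deposited. Of the 36 distal genes without a tRNA gene, 6 stayed distal under each of 3 other minima (doubled, that of the WT table and reached in either table, the last 2 chosen after seeing the data), against 10 of the 15 distal genes with one. With positions as deposited 25 of the 36 and 12 of the 15 stayed distal. With the median end position in place of the mean, 7 of the 36 and 6 of the 15 did. The 6 genes without a tRNA gene that stayed distal under the 3 other minima were YCL021W-A, TIM22, PPN1, RPL8A, LNP1 and PPZ1. They were named after their values were seen. In PPN1, a polyphosphatase gene, the ends at 151 to 190 nt held 77.3% of 185 reads in Bdp1AA and 51.3% of 755 in WT. In PPZ1, a phosphatase gene, the end at 517 nt held 20.8% of 303 reads in Bdp1AA and 7.95% of 805 in WT.

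Expression was taken as the downstream signal of a gene and its log2 ratio, Bdp1AA over WT, relative to the median gene, whose ratio on the deposited scale was −0.51. At least 2-fold higher were 285 of 4544 genes (6.27%) and at least 2-fold lower 448 (9.86%). The counting interval lay wholly past 2-fold for 210 and 258 of these. On the deposited scale the counts were 140 higher and 1098 lower. Whether total mRNA differed between the groups cannot be read from scaled ends. Of the 106 distal features 17 were also higher, a larger share than the 6.27% of all genes, and 10 were lower (9.43%, against 9.86% of all genes). However, 54 of the 106 were not coding genes of the reference, and copies among them can share reads. Minor ends of a higher gene also pass the common minimum more readily, and the part of that in this share was not tested. The 88 genes with a tRNA gene had a median of −0.01, with 6 higher and 6 lower.

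Amino acid biosynthesis held the highest genes. Of 88 compared genes in 8 pathway lists, 56 were higher and 1 lower, and their log2 ratios had a median of 1.52. On the deposited scale 45 were higher and 2 lower, with a median of 1.01. These genes gave 3.55% of downstream signal in Bdp1AA and 1.31% in WT. The median of all compared genes is 0 by construction.

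The arginine pathway was higher as a whole, 10 of 10 genes, with a median log2 ratio of 4.02. ARG1, argininosuccinate synthetase, had a signal of 939 (18429 reads) in Bdp1AA and 7.38 (172 reads) in WT, a log2 ratio of 7.50 (7.29 to 7.73). ARG3, ornithine carbamoyltransferase, had 138 in Bdp1AA and 4.04 in WT (5.61). ARG4 (4.34), ARG7 (4.25), ARG8 (4.20), ARG5,6 (3.19), CPA1 (2.52) and the ornithine carrier ORT1 (2.98) followed. ARG2, the first enzyme of the pathway, had the smallest ratio, 1.42, with 274 reads in Bdp1AA and 173 in WT.

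Histidine and lysine genes came next. In the histidine pathway 6 of 7 genes were higher, with a median of 2.40. HIS4 (4.48) had a signal of 427 in Bdp1AA and 27.2 in WT, HIS5 stood at 3.65, HIS3 at 3.37, HIS1 at 2.40, HIS7 at 1.77 and HIS2 at 1.52. HIS6 was the exception, at −0.06 with 21.5 in Bdp1AA and 31.9 in WT. In the lysine pathway 8 of 9 genes were higher, with a median of 2.10. LYS1 (3.38), the last enzyme, had 214 in Bdp1AA and 29.4 in WT. LYS5 stood at 2.58, LYS20 at 2.37, LYS21 at 2.17, LYS9 at 2.10, LYS2 at 1.84 and LYS12 at 1.83. LYS4 had 0.97, short of the limit.

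In the aromatic pathway 9 of 14 genes were higher, with a median of 1.73. ARO3 (3.24) and ARO4 (2.02), the 2 enzymes of the first step, had signals of 681 and 837 in Bdp1AA and 103 and 294 in WT. TRP4 (2.51), TRP3 (1.98), TRP5 (1.84) and TRP2 (1.62) of the tryptophan branch rose with the aminotransferase genes ARO9 (2.39) and ARO8 (2.03) and with ARO2 (1.39). TRP1 (0.48), ARO1 (0.75), TYR1 (0.65), PHA2 (0.18) and ARO7 (−0.36), the chorismate mutase gene at the branch to phenylalanine and tyrosine, did not reach 2-fold.

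Branched-chain genes were higher in 9 of 11 cases, by less, with a median of 1.19. ILV6 (2.15), the regulatory subunit of the first common enzyme, had 1004 in Bdp1AA and 322 in WT, and LEU4 stood at 1.96, BAT1 at 1.61, ILV3 at 1.52, ILV2 at 1.22, LEU1 at 1.19, LEU2 at 1.16, ILV5 at 1.05 and ILV1 at 1.04. Each of 2 isozyme pairs was split, since BAT2 (0.30) and LEU9 (0.50) stayed within 2-fold. On the deposited scale 4 of the 11 were higher and the median was 0.68, and LEU1 (0.68), LEU2 (0.65), ILV2 (0.71), ILV5 (0.54) and ILV1 (0.53) were within 2-fold. The aspartate, threonine, serine and glycine list had 8 of 15 genes higher and a median of 1.09, or 5 of 15 and 0.58 on the deposited scale. HOM3 (2.70) and HOM2 (2.53) of the shared aspartate branch, SER3 (2.46), ASN1 (1.77), AAT2 (1.69), SHM2 (1.37), GLY1 (1.26) and SER1 (1.09) were higher. ASN2 (0.90), THR1 (0.80), THR4 (0.70), SER33 (0.39), HOM6 (0.27), SER2 (0.07) and SHM1 (−0.16) were not.

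Sulfur amino acid genes were mixed, 6 of 16 higher, with a median of 0.34 that was −0.17 on the deposited scale. STR2 (2.60), MET13 (2.28), MET22 (2.06), MET16 (1.91), MET17 (1.67) and STR3 (1.07) were higher. Near 0 lay MET1 (0.56), MET14 (0.35), MET5 (0.33), MET10 (0.31), MET6 (−0.03), CYS3 (−0.17), CYS4 (−0.21), SAM1 (−0.22) and MET8 (−0.26), and SAM2, an S-adenosylmethionine synthetase gene, had −0.96. Of the glutamate, glutamine and proline list none of 6 was higher. PRO2 had 1.00, just short of 2-fold, GLN1 0.61, GDH1 0.46, PRO3 0.20 and PRO1 0.06, and GLT1, a gene of 6438 nt, was lower at −1.10, which turned to 0.73 with the trend with gene length removed.

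Genes of Gcn4 and its control were mostly within 2-fold. GCN4 had a signal of 768 in Bdp1AA and 716 in WT (0.61, short of 2-fold). Of 18 compared genes of Gcn4 and its control, including translation factors of the eIF2 cycle and their regulators, 1 was higher, PCL5 (4.14, 463 in Bdp1AA and 37.4 in WT), and 1 was lower, GCN1 (−2.06), a gene of 8019 nt at 0.0189 with the length trend removed. PCL5 was the only gene among the 10 highest that was also distal and had ends past a tRNA gene.

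Other genes among the highest were YGL117W (6.00, with 559 in Bdp1AA and 12.4 in WT), TMT1, a trans-aconitate methyltransferase gene (5.60, with 111 in Bdp1AA and 3.26 in WT), and SNZ1, a vitamin B6 gene (4.88). TMT1 had a distal shift of 43.8 nt, but its WT reads were 76 at 2 positions. In purine synthesis 4 of 16 genes were higher (25%, against 6.27% of all compared genes), ADE17 (3.27), ADE12 (1.75), MTD1 (1.47) and ADE2 (1.08). None of the 16 was lower relative to the median gene, but on the deposited scale 2 were higher and 3 lower. In pyrimidine synthesis none of 8 was higher and 2 were lower (25%, against 9.86% of all compared genes), URA2 (−1.49) and URA7 (−1.38). URA2 turned to 0.37 with the length trend removed. On the deposited scale 4 of the 8 pyrimidine genes were lower. The lowest ratios outside the ribosomal protein genes were those of YFR032C-B (−5.76), with 195 reads in Bdp1AA and 17901 in WT at positions that are all also listed under a neighbour in WT, of ASP3-3 (−4.35), whose copies share reads, and of YHL050C (−2.99), a subtelomeric gene. Of 20 aminoacyl-tRNA synthetase genes none was past 2-fold, the range being −0.98 (GLN4) to 0.86 (KRS1). With the length trend removed 3 of the 20 were higher and 0 lower, and on the deposited scale 2 were lower.

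**Figure D4:**
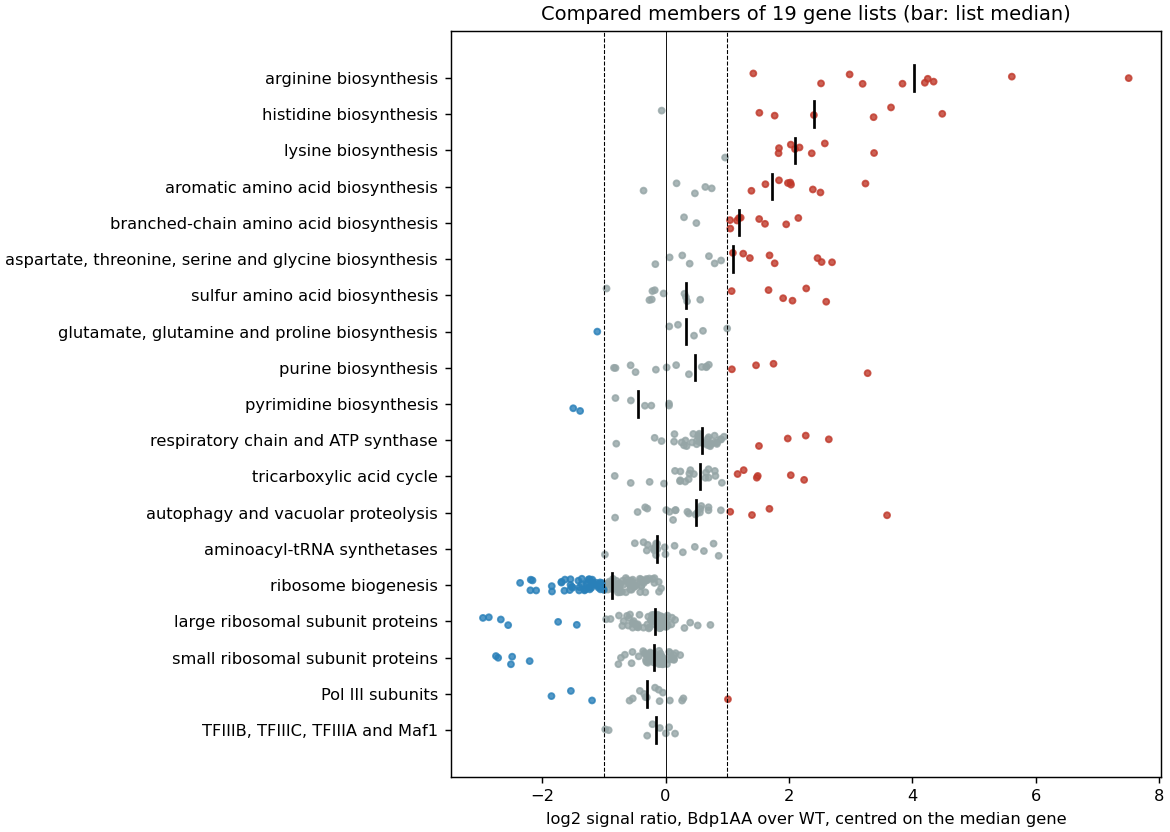
Centred log2 signal ratio, Bdp1AA over WT, of the compared members of 19 gene lists (1 point per gene, vertical bar at the list median, dashed lines at 2-fold). Arginine genes lie furthest to the right with a median of 4.02, ribosome biogenesis genes lie to the left with a median of −0.87, and most ribosomal protein genes lie near 0 with 11 far to the left.

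Genes of ribosome production were lower. Of 104 compared ribosome biogenesis genes, 46 were lower (44.2%, against 9.86% of all compared genes) and 0 higher, and the median was −0.87. IPI1, which acts in processing of the large subunit, had a signal of 4.48 in Bdp1AA and 29.1 in WT (−2.19). UTP6, of the small subunit processome, had 6.62 in Bdp1AA and 40.4 in WT (−2.10). UTP20 (−2.36), UTP10 (−2.18) and ECM16 (−2.15) were as low but are long genes. Of the Pol I subunit and factor genes 3 of 8 were lower, RRN3 (−1.58), RPA190 (−1.45) and RPA135 (−1.17). With the length trend removed 1 of the 8 was lower, and RPA190 (0.0922) and RPA135 (0.000268) turned sign. The same removal left 7 of the 104 ribosome biogenesis genes at least 2-fold lower, against 93 of 4338 coding genes. On the deposited scale 84 of the 104 were lower, against 1098 of 4544 compared genes.

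The ribosomal protein genes split. Of 136 compared, 11 were lower, at −2.96 to −1.44, and the other 125 lay between −0.96 and 0.73, with medians of −0.17 for the large and −0.18 for the small subunit. The share lower was 7.5% of the large and 8.93% of the small subunit genes, under the 9.86% of all compared genes. As deposited, without centring, 19 large and 10 small subunit genes were lower, as were 1098 of all 4544 compared genes. RPL42A had a signal of 323 in Bdp1AA and 3352 in WT (−2.86), and its paralog RPL42B 2375 in Bdp1AA and 4894 in WT (−0.53). RPL7B had 37.1 in Bdp1AA and 411 in WT (−2.96), and RPL7A 1104 in Bdp1AA and 2263 in WT (−0.52). RPS9A had 27.6 in Bdp1AA and 264 in WT (−2.75), and RPS9B 1707 in Bdp1AA and 3016 in WT (−0.31). The same split between paralogs was seen for RPS27A (−2.50) and RPS27B (−0.04), RPL8A (−2.67) and RPL8B (−0.28), RPS24A (−2.71) and RPS24B (−0.55), RPL43A (−1.44) and RPL43B (0.04), RPL40A (−1.74) and RPL40B (−0.21), and RPL35A (−2.55) and RPL35B (−0.96). In the pair RPS30A (−2.20) and RPS30B (−2.48) both were lower.

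Reads of near-identical paralogs could be assigned to the wrong copy, so pair sums were also taken. The sum was at least 2-fold lower for RPS30 (−2.33), RPL35 (−1.93), RPS24 (−1.84) and RPL42 (−1.10), and it was within 2-fold for RPL40 (−0.96), RPL7 (−0.72), RPL43 (−0.70), RPL8 (−0.57), RPS9 (−0.41) and RPS27 (−0.19). Of the 11 low genes 10 hold an intron, as do 78 of the other 125. In 10 of the 11 the mean end moved by no more than 1.13 nt, and in RPL8A it moved by 50.3 nt. The ends of RPL8A lay 55 to 742 nt past the gene in Bdp1AA and 29 to 2393 nt in WT. At 711 to 742 nt lay 8.74% of 1362 reads in Bdp1AA and 0.587% of 14645 in WT, and at 354 to 417 nt none in Bdp1AA and 6.57% in WT. Other coding genes with an intron had a median of 0.26 over 150 genes, against −0.00 over 4052 without one.

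**Figure D5:**
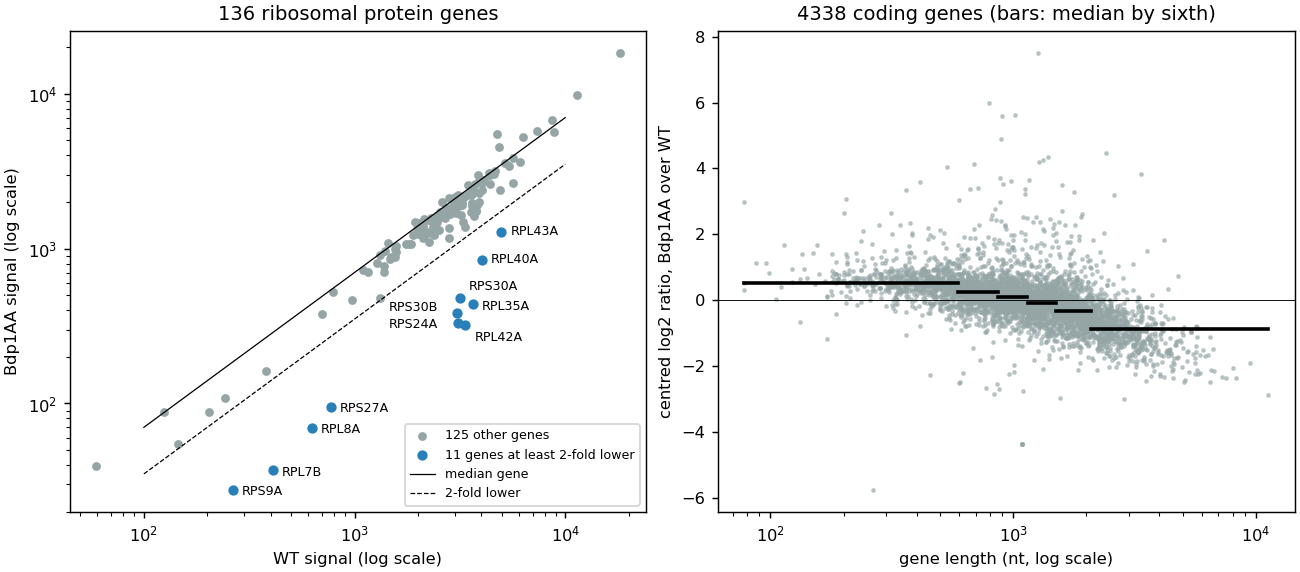
The left panel sets the Bdp1AA signal of the 136 ribosomal protein genes against the WT signal on log scales, with lines for the median gene and for 2-fold lower, and the 11 low genes lie under the dashed line. The right panel sets the centred log2 ratio of 4338 coding genes against gene length, with the median of each sixth, 0.51 for the shortest and −0.87 for the longest.

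Gene length ran through the expression differences. The median ratio fell over the sixths of coding genes by length, 0.51, 0.26, 0.10, −0.08, −0.33 and −0.87, and the rank correlation of ratio and length was −0.64 over 4338 genes, which share the same 2 pooled columns. Of 13 compared genes of a list of very long genes 12 were lower, among them TRA1 (−2.87), PRP8 (−2.34), the fatty acid genes ACC1 (−2.14) and FAS1 (−1.70) and VPS13 (−1.90), and with the trend removed none of the 13 was. RNA integrity was not given in the sources used here. Several amino acid genes went against the trend, such as HIS4 (2400 nt, 4.48) and LYS2 (4179 nt, 1.84). The part of length in the other results was not tested beyond removal of the trend.

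Genes for Pol III transcription factors had a median log2 ratio of −0.15, Pol III subunit genes one of −0.30 and tRNA processing genes one of −0.56. In the list of TFIIIB, TFIIIC, TFIIIA and Maf1 none of 8 compared was past 2-fold, with BRF1 at −0.09, SPT15 (the TATA-binding protein) at 0.01, TFC6 at 0.06, MAF1 at −0.21 and TFC1 at −0.98. Of 17 Pol III subunit genes 3 were lower (17.6%), RET1 (−1.85), RPO31 (−1.53) and RPC82 (−1.19), and 1 was higher (5.88%), RPC17 (1.01). Of 58 genes for tRNA processing, modification and export 14 were lower (24.1%) and none higher, led by TYW1 (−1.61) and LOS1 (−1.55), a tRNA export receptor. Among all compared genes 9.86% were lower and 6.27% higher. With the length trend removed, none of the Pol III subunit genes and 2 of the tRNA processing genes were lower, against 93 of 4338 coding genes. Without centring, 2 of the 8 factor genes, 5 of the 17 subunit genes and 33 of the 58 processing genes were lower. So were 1098 of all 4544 compared genes.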

How the data were processed

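The values are signals deposited by the authors: scaled read ends per gene and position, with 3 libraries pooled in 1 column per group per the labels, and genome build R64 per the submitters' processing notes. The scale, the aligner and the tool that assigned ends to genes are not stated in those notes. Every value was a whole multiple (tolerance 0.001) of a step of 0.05096 in Bdp1AA and 0.04293 in WT, which was taken as 1 read. Bdp1AA listed positions from 2 reads and WT from 11, so a common minimum of 0.834 was set, which kept 94.4% of the downstream signal of Bdp1AA and 98.1% of that of WT. In Bdp1AA 11.1% and in WT 14.6% of positions stand under several genes. Only ends past the annotated gene end were used. Genes with at least 60 reads in both groups were compared by log2 signal ratio relative to the median gene, by mean end position (20 nt) and by the share of reads per cluster of ends (joined at up to 25 nt, at least 10 reads, 20 percentage points). The planned count tests were not possible with 1 column per group. Exact binomial 95% intervals cover counting error only. Named are the tagged and deleted genes, the 10 highest and 10 lowest ratios, the 10 largest distal and 5 largest proximal shifts, the 10 largest usage differences, each gene near a tRNA gene with a position call or ends beyond it, members of the amino acid lists and up to 4 of each other list. Others, such as the stable distal genes and list members near 0, were named after their values were seen. Genes, lists and rule were chosen with earlier results of these data known. Some genes named by the rule are not reported here. Calculations used Python 3.11.15, pandas 2.3.3, numpy 2.4.6, scipy 1.17.1 and matplotlib 3.10.9, and were tested on simulated data. Alternatives covered scaling, read and signal minima, gene assignment, length, thresholds and position measure.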

Additional observations from a re-analysis of the deposited data

Results flagged for a closer look

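Ends inside genes, which the comparisons above leave out, are listed for minus-strand genes only. They made up 17.3% of minus-strand reads in Bdp1AA (1625845 of 9414982 reads, in 120 genes) and 14.5% in WT (1911931 of 13208383 reads, in 276 genes). Over all positions as deposited, listed from 2 reads in Bdp1AA and from 11 in WT, the gene counts were larger. Ends inside genes then stood under 1058 genes in Bdp1AA (1662703 reads) and 425 in WT (1956668 reads). The order of the gene counts thus turns with the positions counted. Ends inside genes drew attention as a signal outside the main measurement. Genes on the plus strand have no such ends in either table, so the listing differs by strand.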

How the results depend on the processing

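No paired analysis was possible because each group is 1 pooled column, and for the same reason no library could be left out. On the deposited scale 140 genes were higher and 1098 lower. From at least 20 reads, 678 were lower, 87 proximal and 178 different in site usage, and the mean share beyond the tRNA gene was 2.60%. From at least 200 reads, 177 were higher, 215 lower, 18 proximal and 19 different in usage. With positions as deposited 337 were distal and 83 proximal, with each position given to the nearest gene 60 distal, with coding genes only 52 distal, and with the median position 62 distal. Limits of 10 nt gave 213 distal and 111 proximal, and 50 nt gave 61 and 8. Clusters joined at 10 nt gave 203 usage differences and at 50 nt 38. Pooled reads gave a share beyond of 0.526%. With the length trend removed 93 were lower. A minimum reached in either table, chosen after seeing the data, gave 22 proximal and 32 usage differences. The share of genes near a tRNA gene that were distal was 11.4 to 23.7% over the alternatives that keep the 20 nt limit, 33.0% at 10 nt and 5.68% at 50 nt. The 23.7% came with positions as deposited, where 337 of all 5174 compared genes were distal. The 11.4% came with the median position, where 62 of 4544 were. At 10 nt 213 of 4544 were distal and at 50 nt 61. The share among genes without a tRNA gene was not taken under these alternatives. Shifts that turned sign were SLD5 5.09, YNL054W-A −1.70 and NSL1 −44.8 nt as deposited; PRI1 1.16, YNL054W-A −124 and PPQ1 3.30 nt at the doubled minimum; YDR261C-C −19.9, YLR112W 10.8, YLR227W-A −4.13, YOR142W-A −0.23, PPQ1 21.1 and YPR137C-A −1.43 nt by nearest gene. PPQ1 had 4 nt by median position, 3.99 nt at the minimum of the WT table and 0.22 nt at the minimum reached in either table, and YPR202W 8.24 nt at the minimum of the WT table, both added after seeing the data. With the length trend removed the log2 ratio turned for DUR1,2 (0.0294), RPO21 (0.0203), GLT1 (0.73), GCN1 (0.0189), URA2 (0.37), FAS1 (0.0818), VPS13 (0.36), FKS1 (0.30), IKI3 (0.13), SKI2 (0.0228), RPA190 (0.0922), FAS2 (0.10) and RPA135 (0.000268), and the cause was not tested. Of 106 distal features 57 stayed so under the doubled minimum, that of the WT table and that reached in either table alike, as did 7 of 41 proximal ones and 17 of 71 usage differences. With positions as deposited, which differ in minimum between the tables, 75, 13 and 18 stayed. With the median position 23 of the 106 distal and 5 of the 41 proximal features stayed. Depth limits minor ends, since a position under 17 reads in Bdp1AA or 20 in WT is not counted.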

Other observations

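Among the other gene lists some held more called genes than the 6.27% higher and 9.86% lower of all compared genes. In the tricarboxylic acid cycle list 6 of 26 genes were higher (23.1%) and none lower, among them the oxodicarboxylate carrier gene ODC2 (log2 ratio 2.25), PYC2 (1.49), IDP1 (1.48) and the citrate carrier gene CTP1 (1.27). On the deposited scale 2 were higher and 2 lower. Of the autophagy list 4 of 23 were higher (17.4%), led by ATG41 (3.59, a signal of 284 in Bdp1AA and 33.6 in WT) and ATG33 (1.68), and on the deposited scale 2 were. The stress-induced list had 9 of 39 higher (23.1%), or 3 on the deposited scale. In the respiratory chain list 4 of 38 were higher (10.5%), COX26 (2.65), CYC7 (2.27), COX5B (1.98) and CYC1 (1.51), a share near that of all genes. The iron list was also near it, with 2 of 21 higher (9.52%), the iron-sulfur scaffold genes ISU1 (2.14) and ISU2 (1.31), and FRE1 (−1.07) lower.

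In the nitrogen-regulated list 6 of 33 genes were higher (18.2%) and 8 lower (24.2%). Of the 8 lower, 4 are the ASP3 copies, so the 24.2% is not a share of separate genes. UGA3 (3.51) and CAR1 (1.62), the arginase gene, were higher. The 4 ASP3 copies (−4.35, a signal of 20.3 in Bdp1AA and 593 in WT), which share reads, and the urea amidolyase gene DUR1,2 (−1.62, or 0.0294 with the length trend removed) were lower. In the phosphate list 4 of 17 were lower (23.5%), PHO81 (−1.93), PHO12 (−1.79), PHO11 (−1.65) and VTC3 (−1.55), and 2 were with the length trend removed. In the cell cycle list 6 of 18 were lower (33.3%), among them FAR1 (−1.46), SWI6 (−1.42), EGT2 (−1.37) and PCL2 (−1.22), and 1 was with the length trend removed. Relative to the median gene, none of 34 proteasome, 35 chaperone, 11 histone or 65 mitochondrial ribosomal protein genes was past 2-fold. On the deposited scale 3 of the proteasome, 6 of the chaperone and 3 of the mitochondrial ribosomal protein genes were lower, and none was higher.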
